A study of Mus musculus with 9 samples.

Results

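Neutrophils carry antimicrobial proteins in granules that are filled in sequence as the cell matures, and this section describes 10 genes of that program in the livers of young mice. The 10 genes were chosen by their normalized counts across the 9 liver libraries, so their values are given as a description without a test. They are 10 of 32285 genes in the table. Prtn3, Elane, Mpo and Ctsg make up the 4 primary granule genes, and S100a8, S100a9, Ngp, Camp, Ltf and Retnlg the 6 later genes. Normalized counts are read counts per gene divided by a size factor per library, and 6 of the 10 genes (Prtn3, Mpo, S100a8, S100a9, Ngp and Ltf) passed the filter of a mean of at least 10 used for testing, whereas Elane, Ctsg, Camp and Retnlg did not.

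Liver RNA was sequenced from Tet-OFF mice in 3 groups of 3 libraries, named Control, Dox and Tc. Tet-OFF mice carried PB CAG-CreERT2, Rosa26-LSL-tTA and Rosa26-tetO-Venus-ires-mCherry, so all groups shared these alleles, and by the labels mice of every group, controls included, received tamoxifen. The Dox group drank doxycycline hyclate and the Tc group tetracycline hydrochloride, each at 2 mg/mL in water with 10 mg/mL sucrose for 7 days from 4 weeks of age; what the controls drank is not given in the sources used here. The CAG promoter drives CreERT2 in most cell types, so transgene activation was not restricted to hepatocytes, and whole livers were ground for RNA. The series asked how far the drugs disturb transcription apart from the transgene. However, the paper reports that tamoxifen-treated Tet-OFF mice express Venus without drug, and that either drug at the dose given here represses it. Each comparison of a drug group with Control would therefore also compare the transgene off with the transgene on. The parts of drug and transgene in the differences below were not tested. In bulk liver RNA, fewer neutrophils and less RNA per neutrophil cannot be told apart, and RNA of other liver cells is measured together with theirs.

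Granulocytes develop from progenitors through the promyelocyte, which makes the proteins of the primary (azurophil) granules, and then through the myelocyte and metamyelocyte, which make those of the specific and gelatinase granules. PU.1 and the C/EBP factors are central regulators of this program, and Myb acts at its early stages. The liver is a site of blood formation before birth and for a short time after it, and mature neutrophils also circulate through it.

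The upstream sequences of the 4 primary genes and of Ngp, a later gene, are shown because all 4 primary genes held a motif that, of the 6 later genes, S100a8 alone held, while Ngp held another motif that no primary gene held. Sequences are from RefSeq, GRCm38.p6, read 5′ to 3′ on the strand of the gene, and stop before the first annotated exon. All 10 genes matched a RefSeq promoter. Capitals mark GAGGAAG, a PU.1 motif, in the primary genes and TTGCNNAA, a C/EBP motif, in Ngp. The printed stretches are chr10:79879417-79879613 (+ strand, 197 bases) for Prtn3, chr10:79886062-79886246 (+ strand, 185 bases) for Elane, chr11:87793534-87793580 (+ strand, 47 bases) for Mpo, chr14:56102575-56102824 (- strand, 250 bases) for Ctsg and chr9:110419558-110419746 (+ strand, 189 bases) for Ngp. The Prtn3 stretch lies in an intron of the longest annotated Prtn3 model and before its RefSeq start.
Prtn3: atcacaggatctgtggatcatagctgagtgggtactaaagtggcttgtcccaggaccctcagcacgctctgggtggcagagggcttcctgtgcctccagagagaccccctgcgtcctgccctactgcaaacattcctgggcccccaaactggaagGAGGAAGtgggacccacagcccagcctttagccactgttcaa
Elane: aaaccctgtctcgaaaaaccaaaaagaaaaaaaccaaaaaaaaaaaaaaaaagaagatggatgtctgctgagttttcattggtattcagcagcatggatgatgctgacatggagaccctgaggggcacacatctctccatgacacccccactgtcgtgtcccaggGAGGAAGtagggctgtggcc
Mpo: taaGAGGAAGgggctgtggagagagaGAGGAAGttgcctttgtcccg
Ctsg: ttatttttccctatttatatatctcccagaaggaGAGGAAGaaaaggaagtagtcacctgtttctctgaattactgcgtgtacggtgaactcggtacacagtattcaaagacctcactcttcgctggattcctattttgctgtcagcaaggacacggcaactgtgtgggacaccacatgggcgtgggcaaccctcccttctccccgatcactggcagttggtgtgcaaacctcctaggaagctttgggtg
Ngp: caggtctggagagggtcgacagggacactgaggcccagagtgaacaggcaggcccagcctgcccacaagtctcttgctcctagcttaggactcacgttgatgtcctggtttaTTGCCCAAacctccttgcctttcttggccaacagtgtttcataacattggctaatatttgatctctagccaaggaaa

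Motifs were searched on both strands in the 250 bases before each RefSeq start, and the 3 motifs may overlap. GAGGAAG occurred in 5 of the 10 genes, namely all 4 primary genes and S100a8, against 10.6% of 32851 promoters of the same length. TTGCNNAA occurred in 4 of the 10 genes, S100a9, Ngp, Ltf and Retnlg, against 9.56% of promoters. The short Myb motif AACNG occurred in 10 of 10 genes and in 74.2% of all promoters, so it says little about the set. In Prtn3 and Elane, which are neighbours on chromosome 10 with 3073 bases between them, the PU.1 motif started 95 and 85 bases before the RefSeq start. A match is a description of letters and not a measured site.

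**Figure D1:**
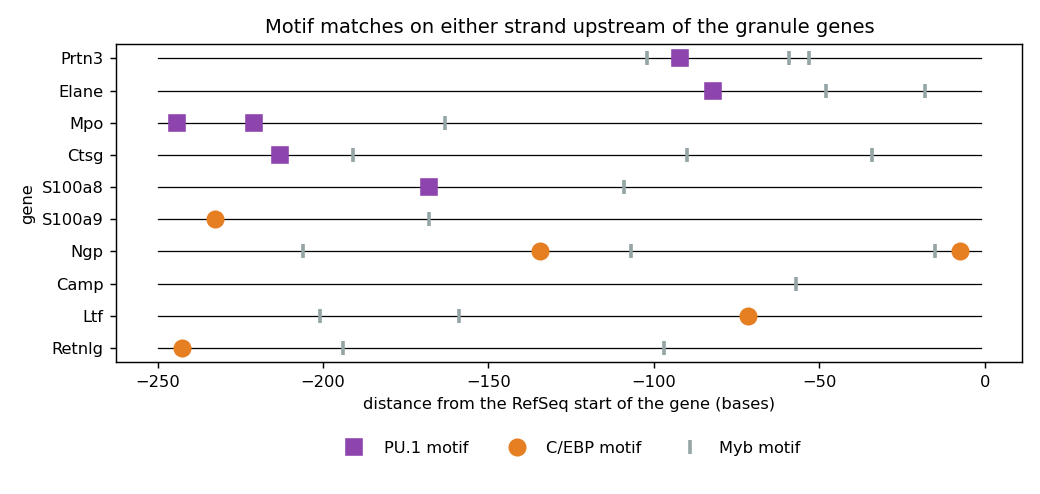
Motif matches in the 250 bases before the RefSeq start of the 10 genes, with the distance from that start in bases on the x axis and 1 gene per line. Squares are PU.1 motifs, circles C/EBP motifs and ticks Myb motifs; squares stand on the 4 primary genes and S100a8, circles on S100a9, Ngp, Ltf and Retnlg.

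A property of the libraries bears on every result that follows. The values of library 3 in each group could be approximated by mixing those of libraries 1 and 2, with fitted weights of 58.6% and 41.5% for Control, 61.3% and 34.5% for Dox, and 61.3% and 36.8% for Tc. It lay between them for 201 of 207 genes in Control, 3010 of 3025 in Dox and 483 of 488 in Tc that differed over 2-fold between libraries 1 and 2 (genes with a mean of at least 50). The adjusted p-values from all 9 libraries are therefore likely too small, and calls without libraries 3 are given as well. The study describes the samples of a group as independent biological replicates, while its statement on individual mice stands with the qPCR measurements, so p-values measure the spread between these libraries. Depth ranged from 7426136 to 12183041 reads on genes per library, at which 1 read was worth about 1 normalized count.

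Prtn3, which encodes the serine protease proteinase 3, stood apart from the other 9 genes (chr10:79874476-79883174, + strand). Its normalized counts were 652, 720.1 and 699 in the Control libraries, 3.16, 1.15 and 2.64 in the Dox libraries, and 6.84, 609 and 237 in the Tc libraries. Thus Prtn3 was high and even in the controls, near 0 in every Dox library, and among the Tc libraries near 0 only in the first. The groups did not overlap in any pair. Over each group's reads, 1980 in Control against 7 in Dox gave a ratio of 292 (95% exact interval 142 to 728, counting error only), and 1980 against 965 in Tc gave 2.38 (2.21 to 2.58). The Tc ratio covers libraries that differed from each other by far more than counting error.

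Per kilobase of exon, Prtn3 was also the most abundant of the 10 genes in the controls, with a mean of 399 normalized counts per kilobase. It was followed by S100a9 (94.0), Ngp (58.9), S100a8 (31.1), Camp (22.8), Retnlg (18.5), Mpo (18.2), Ltf (14.1), Elane (12.7) and Ctsg (6.12). Prtn3 lay above the other genes in every control, whereas each later neighbour in that order overlapped the next over the 3 control libraries. In the Dox group S100a9 was highest per kilobase (43.9) and Prtn3 stood at 1.34. Prtn3 shares 159 exonic bases with Plppr3 on the opposite strand, which had at most 5.4 normalized counts in any library. The library kit keeps strand, but the strand setting of the counting is not given in the sources used here.

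The other 3 primary genes were lower in level and followed a different order among the controls. Mpo, the myeloperoxidase that makes hypochlorous acid, had 9.53, 111 and 66.1 normalized counts in Control, 0, 1.15 and 0.88 in Dox, and 4.88, 9.89 and 6.74 in Tc (chr11:87793581-87804413, + strand). Control library 1 was far below the other 2 controls and within the range of the Tc libraries, while every Dox library lay below every Control and Tc library. Over the reads, 187 in Control against 2 in Dox gave a ratio of 96.6 (26.4 to 803), and 187 against 24 in Tc gave 9.05 (5.9 to 14.5). Mpo shares 512 exonic bases with the antisense gene Gm11505, which was at 0 in all libraries.

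Elane encodes neutrophil elastase, a serine protease stored beside proteinase 3 (chr10:79886247-79888215, + strand). It had 3.18, 20.3 and 14.0 normalized counts in Control, 0 in all 3 Dox libraries, and 0.977, 2.7 and 3.37 in Tc. The Control and Tc groups overlapped, with Tc library 3 just above Control library 1. With 37 reads in Control and 0 in Dox, the 95% exact interval for the ratio started at 9.85. Taking a floor of 3 reads over the Dox group, the ratio was 12.7. Against Tc the ratio was 5.37 (2.46 to 13.4).

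Ctsg, which encodes cathepsin G, was the scarcest primary gene (chr14:56099881-56102574, - strand). It had 2.12, 7.96 and 8.9 normalized counts in Control, 0, 1.15 and 0 in Dox, and 0, 1.8 and 2.53 in Tc. Every Dox library lay below every control, and Tc library 3 reached above Control library 1. The ratio over 18 reads in Control and 1 in Dox was 18.6 with an interval from 2.94 to 775, so its size was poorly set at this depth. Mpo, Elane and Ctsg thus shared low Dox values. In Tc their highest values were just above the lowest control, library 1, and below the other controls, whereas the Tc values of Prtn3 were all below its lowest control.

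**Figure D2:**
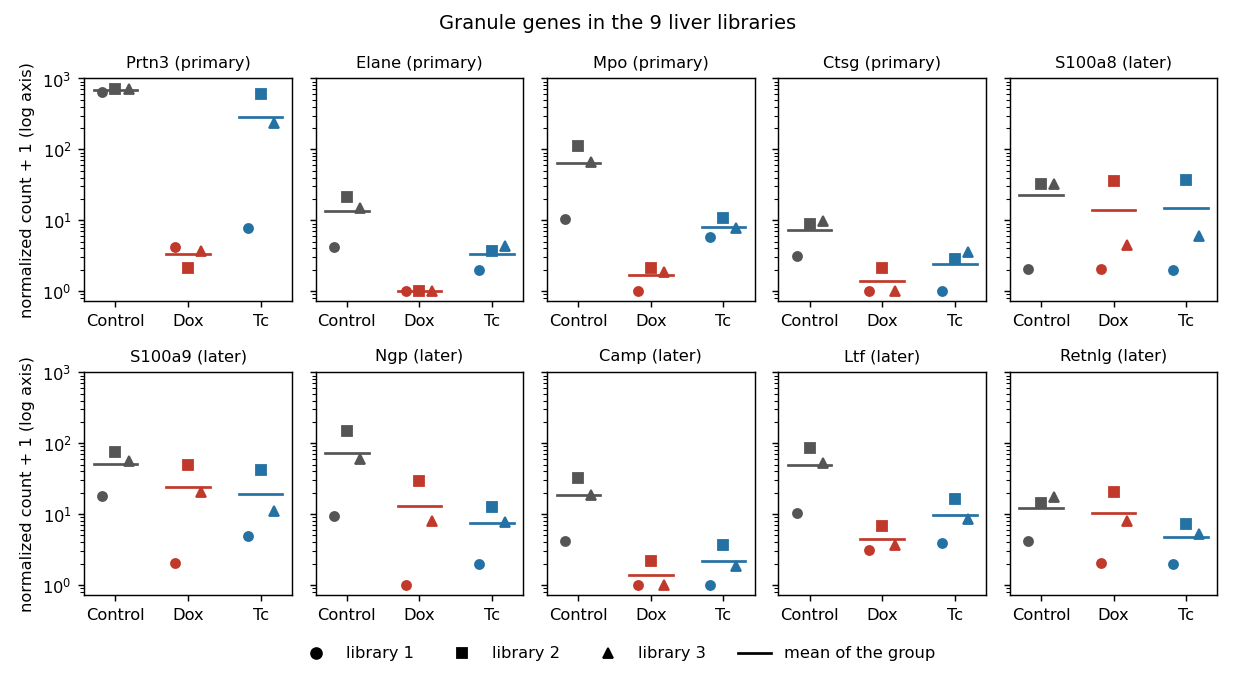
Normalized count + 1 (log axis) of the 10 granule genes in the 9 libraries, with circles, squares and triangles for libraries 1, 2 and 3 and a line at the group mean. Prtn3 sits between 652 and 720.1 in the controls and at 609 and 237 in Tc libraries 2 and 3, whereas all Dox libraries are at or below 3.16.

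Among the later genes, those of the specific granules came closest to Mpo. Ltf encodes lactoferrin, an iron-binding protein of these granules (chr9:111019271-111042767, + strand). It had 9.53, 85.8 and 50.9 normalized counts in Control, 2.11, 5.75 and 2.64 in Dox, and 2.93, 15.3 and 7.58 in Tc. The Dox libraries lay below all controls, and Tc library 2 lay above Control library 1. The ratio of Control to drug over the reads was 15.1 for Dox (7.97 to 32.1) and 5.85 for Tc (3.9 to 9.04).

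Camp encodes the cathelicidin precursor, an antimicrobial peptide (chr9:109847379-109849617, - strand). It had 3.18, 31.0 and 17.8 normalized counts in Control, 0, 1.15 and 0 in Dox, and 0, 2.7 and 0.842 in Tc. All 6 drug libraries lay below all 3 controls, the lowest control being the first. The ratio was 53.7 over 52 against 1 reads for Dox (9.22 to 2160) and 15.1 over 52 against 4 for Tc (5.56 to 57.5).

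Ngp, the neutrophilic granule protein, is a relative of cathelicidin in sequence and, like Camp and Ltf, lies on chromosome 9 (chr9:110419747-110423012, + strand). It had 8.47, 147.7 and 59.8 normalized counts in Control, 0, 28.8 and 7.04 in Dox, and 0.977, 11.7 and 6.74 in Tc. Dox library 2 lay above Control library 1, so Dox and Control overlapped, as did Tc and Control. Within each group library 1 was the lowest and library 2 the highest.

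S100a8 and S100a9 encode the subunits of calprotectin, which lies in the cytosol rather than in a granule and stays abundant in mature neutrophils. S100a8 had 1.06, 31.8 and 31.8 normalized counts in Control, 1.05, 34.5 and 3.52 in Dox, and 0.977, 36.0 and 5.05 in Tc (chr3:90668978-90670035, + strand). S100a9 had 16.9, 74.3 and 55.9 in Control, 1.05, 48.3 and 19.4 in Dox, and 3.91, 41.4 and 10.1 in Tc (chr3:90692632-90695721, - strand). For both genes library 2 of every group was high or highest, library 1 lowest, and the groups overlapped in every pair.

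Retnlg, a resistin-like gene of maturing neutrophils, had 3.18, 13.3 and 16.5 normalized counts in Control, 1.05, 19.6 and 7.04 in Dox, and 0.977, 6.29 and 4.21 in Tc (chr16:48872621-48874496, + strand). Its highest value was in Dox library 2, and the groups overlapped. The ratio of Control to Dox was 1.23 with an interval of 0.708 to 2.16 over 31 and 26 reads.

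Summed over the 4 primary genes, the normalized counts were 667, 860 and 788 in Control, 3.16, 3.45 and 3.52 in Dox, and 12.7, 623 and 249 in Tc. On the scale of log2(summed count + 1), the difference from Control was -7.46 with Dox (within-group SD 0.14, n = 3) and -2.58 with Tc (SD 2.04, n = 3). Without Tc library 1 the Tc difference was -0.96, and without Tc library 2 it was -3.71. Prtn3 made up 83.7% to 97.8% of the primary reads in the controls, so the sum is largely that gene.

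Summed over the 6 later genes, the normalized counts were 42.3, 384 and 233 in Control, 5.26, 138 and 39.6 in Dox, and 9.77, 113 and 34.5 in Tc. The log2 differences were -2.26 for Dox and -2.16 for Tc, against within-group SDs of 1.97 and 1.68 (n = 3), so both were near the spread within groups. Without Dox library 1 the Dox difference was -1.07 and without Dox library 2 it was -3.30, and without Tc library 1 the Tc difference was -1.30. Between Dox and Tc the later sums differed by -0.10 (SD 2.00, n = 3) and the primary sums by -4.88 (SD 2.04, n = 3). Without libraries 3 the primary differences were -7.46 for Dox and -3.04 for Tc, and the later ones -2.13 and -1.88.

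The split by role within libraries showed 3 patterns. Mpo, Elane and Ctsg together had 14.8, 139.8 and 89.0 normalized counts in Control, 0, 2.3 and 0.88 in Dox, and 5.86, 14.4 and 12.6 in Tc. Ngp, Camp and Ltf together had 21.2, 265 and 128 in Control, 2.11, 35.7 and 9.68 in Dox, and 3.91, 29.7 and 15.2 in Tc. S100a8 and S100a9 together had 18.0, 106 and 87.7 in Control, 2.11, 82.8 and 22.9 in Dox, and 4.88, 77.3 and 15.2 in Tc.

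Library 2 had the highest later sum in each group. Between the second libraries of Control and Dox, the S100 sum differed least, the specific granule sum more, and the sum of Mpo, Elane and Ctsg most. Tc library 2 was close to Dox library 2 for the S100 and specific granule sums, and above it for Prtn3 and for Mpo, Elane and Ctsg.

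**Figure D3:**
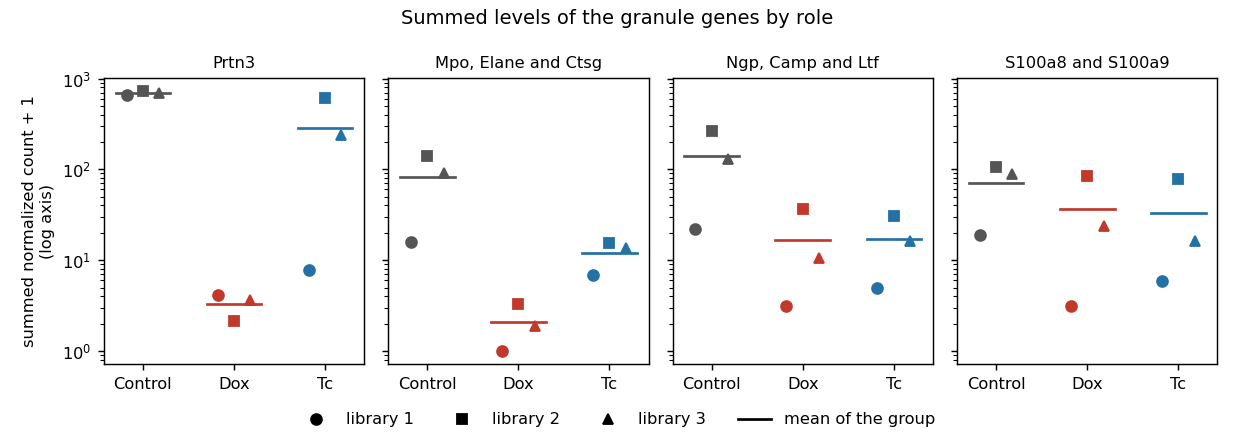
Summed normalized count + 1 (log axis) of the granule genes by role in the 9 libraries, with circles, squares and triangles for libraries 1, 2 and 3 and a line at the group mean. The S100 pair reaches 82.8 in Dox library 2 and 77.3 in Tc library 2, near the 106 of Control library 2, whereas Mpo, Elane and Ctsg together reach only 2.3 and 14.4 there.

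The share of the primary genes among the normalized counts of all 10 was 94.0%, 69.1% and 77.2% in Control, 37.5%, 2.4% and 8.2% in Dox, and 56.5%, 84.6% and 87.8% in Tc. The first Dox share rests on 8 reads. Without Prtn3, an alternative chosen after the data were seen, the shares were 25.9%, 26.7% and 27.7% in Control, 0%, 1.6% and 2.2% in Dox, and 37.5%, 11.3% and 26.8% in Tc. So leaving out Prtn3 kept the low share in Dox. It placed Tc library 1 above, Tc library 2 below and Tc library 3 within the range of the controls. Without Prtn3 the share in Dox library 1 rests on 5 reads and that in Tc library 1 on 16. In Control the share was even although the summed level differed by many fold between libraries 1 and 2, so the primary genes other than Prtn3 rose and fell with the later genes across these 3 libraries.

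Counts of genes past a threshold are given beside the share of all genes that passed it, and nothing is read from them, because the same contrasts chose the genes. Called genes had an adjusted p under 0.05 and a fold change over 2 by limma on log2(normalized count + 1) over 12100 genes. With Dox, 2 of the 6 genes tested (Prtn3 and Mpo) were called lower, against 3.86% of all genes; this count fell to 0 without Control library 2, Control library 3 or Dox library 3, was 1 when only the Dox and Control groups were fitted, and rose to 4, with Ngp and Ltf, when the replicate number entered as a block. With Tc and between Dox and Tc, 0 of 6 were called lower, against 0.124% and 0.174%. DESeq2 on recovered reads called 3 with Dox (Prtn3, Mpo and Ltf, background 6.07%), 1 with Tc (Mpo, 1.02%) and 1 lower in Dox than in Tc (Prtn3, 2.6%), whereas edgeR on the same reads called the same 3 genes with Dox and 0 in the other comparisons. Without libraries 3, limma called no gene of the table in any comparison, and 1040 genes had an unadjusted p under 0.05 with Dox, 239 with Tc and 454 between the drugs. DESeq2 without libraries 3 called 2 with Dox (Prtn3 and Mpo, 0.835%), 0 with Tc (0.0579%) and Prtn3 between the drugs (0.19%).

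All 3 Dox libraries lay below all 3 controls for 6 of the 10 genes, the 4 primary genes, Camp and Ltf, against 17.1% of the genes tested. All Tc libraries lay below the controls for 2 of 10, Prtn3 and Camp (14.9%), and all Dox libraries below the Tc libraries for 3 of 10, Prtn3, Elane and Mpo (12.4%). With libraries 1 and 2 alone these counts were 6, 4 and 3, against 19.8%, 22.0% and 15.5%.

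Of the 8 genes outside the set that were most like the primary sum across the libraries, 1 (Lrg1) was on a list of neutrophil genes. By Pearson correlation of log2(normalized count + 1) with log2(summed primary count + 1) over the 9 libraries, the 8 were Nfasc (0.997), Jak3 (0.991), Lrg1 (0.991), Tmem200b (0.991), Isyna1 (0.99), Fgl1 (0.989), Ccn5 (0.989) and Itgb5 (0.988). Without libraries 3 these values ranged from 0.985 to 0.999. Points share their depth and size factor and libraries 3 are not independent, so the values are descriptions.

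Isyna1, which encodes inositol-3-phosphate synthase, had 5967, 4402 and 5520.3 normalized counts in Control, 60.0, 153 and 95.02 in Dox, and 175, 4547 and 1975 in Tc. Fgl1 encodes a fibrinogen-like protein that hepatocytes secrete, and had 13633, 11158 and 11614 in Control, 957, 1528 and 1088 in Dox, and 2302, 13257 and 6584 in Tc. Both shared with Prtn3 an even level in the controls and a low level in Dox and Tc library 1. For all of them Tc library 2 was the highest Tc library, and Tc library 3 lay between Tc library 1 and the lowest control.

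The genes most like the later sum were Wipf1 (0.983), Slc15a3 (0.982), Tmem268 (0.98), Slfn2 (0.972), Clec4n (0.97), Ifi30 (0.968), Nlrc4 (0.968) and Ucp2 (0.966), many of which are known from myeloid cells. When Prtn3 was left out of the primary sum, the most alike genes included Apbb1ip (0.995), Pak1 (0.978), Itgam (0.975), H2-DMa (0.975), Lyz2 (0.972), Smoc1 (0.971) and Tbc1d1 (0.971), and none of the 8 genes most like the full primary sum was among them. This list was added after the data were seen.

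**Figure D4:**
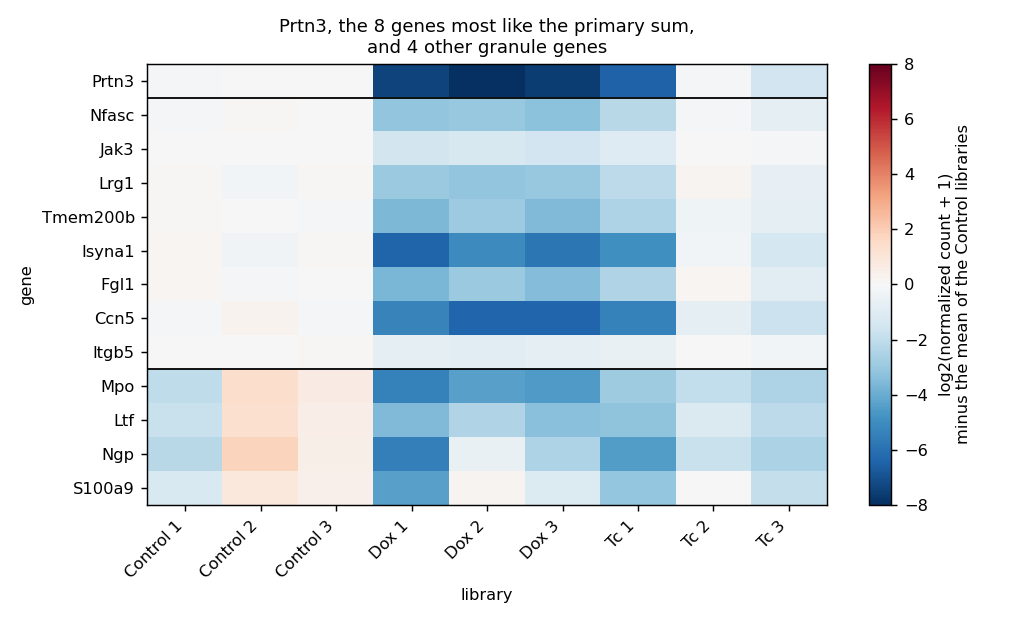
Log2(normalized count + 1) minus the mean of the Control libraries (color) for Prtn3, the 8 genes most like the primary sum and 4 other granule genes (rows) in the 9 libraries (columns). Prtn3 and the 8 genes are even across the controls and lower in the Dox libraries and Tc library 1, while Mpo, Ltf, Ngp and S100a9 already differ between Control libraries 1 and 2. Among the 8 genes the log2 difference with Dox is smallest for Itgb5 (-0.80) and Jak3 (-1.43).

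Other genes of neutrophils, which were not used to choose the 10, were counted over 3 lists with 46 genes, of which 21 passed the filter. These lists too were made with earlier results of these data known, so the counts are descriptions and not separate support. With Dox, 6 of the 21 were called lower and 0 higher, against 3.86% of all genes lower; with Tc and between Dox and Tc none was called by limma. The median log2 difference of the 21 was -1.23 with Dox and -0.83 with Tc, against 0 and 0.004 over all genes tested. Among the 6 called with Dox were Itgam, Itgb2, Lyz2, Ctsc and Lrg1, most of which macrophages or hepatocytes make as well. DESeq2 called 11 lower with Dox (background 6.07%), 1 with Tc (1.02%), and 4 lower and 1 higher in Dox than in Tc.

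Itgam encodes the alpha chain of Mac-1, an adhesion receptor of neutrophils and macrophages. It had 75.2, 161 and 105.5 normalized counts in Control, 8.42, 21.9 and 15.0 in Dox, and 36.1, 63.9 and 40.4 in Tc, so no drug library reached a control. The log2 difference was -2.86 with Dox (SE 0.40, adjusted p = 0.00942 by limma) and -1.24 with Tc (adjusted p = 0.311). Without libraries 3 the Dox difference was -2.92 (adjusted p = 0.559 by limma and 0.00969 by DESeq2).

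Its partner chain Itgb2 fell by 1.88 with Dox on the log2 scale (adjusted p = 0.0326 by limma), and Lyz2, a lysozyme of myeloid cells, fell by 1.81 (adjusted p = 0.0231 by limma). Ctsc encodes the protease that activates the primary granule serine proteases, and had 1562, 1551 and 1695 normalized counts in Control, 588, 322 and 466 in Dox, and 719.7, 2161 and 1177 in Tc. It fell by 1.84 with Dox (adjusted p = 0.0241 by limma). Lrg1, a glycoprotein of neutrophil granules that hepatocytes also secrete, fell by 3.04 with Dox (adjusted p = 0.0138 by limma) and had 4113, 21009 and 11405 normalized counts in the Tc libraries. Without libraries 3, the adjusted p by DESeq2 was 0.274 for Itgb2, 0.207 for Lyz2, 0.155 for Ctsc and 0.0079 for Lrg1.

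Lcn2, a siderophore-binding protein of specific granules that hepatocytes make in the acute phase, had 5136, 5041 and 6067 normalized counts in Control, 24.2, 376 and 142 in Dox, and 142, 16169 and 5294 in Tc. Its log2 differences were -5.61 with Dox (adjusted p = 0.0639 by limma) and -1.23 with Tc (adjusted p = 0.836 by limma). As with Prtn3 and Lrg1, the first Tc library was low and the second high.

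The remaining 14 tested genes did not pass in any comparison of the main limma fit. Their log2 differences with Dox were -1.94 for Mmp9, -1.62 for Csf3r, -1.27 for Chil3, -1.23 for Cybb, -1.21 for Cyba, -1.06 for Fpr1, -1.03 for Fpr2, -0.91 for Il1b, -0.71 for Serpinb1a, -0.64 for Anxa1, -0.19 for Srgn, 0.08 for Hdc, 0.63 for Chil1 and 0.69 for Mxd1. Csf3r, the receptor for the growth factor G-CSF and a marker of the lineage, had 56.1, 74.3 and 73.7 normalized counts in Control, 14.7, 33.4 and 19.4 in Dox, and 10.7, 62.1 and 26.9 in Tc.

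The defining surface gene Ly6g was near 0 in all groups, with at most 2.12 normalized counts in any library. Among early genes below the filter, Ms4a3 and Fcnb, both of promyelocytes and myelocytes, reached 7.08 and 5.31 in Control library 2 and at most 1.15 in every drug library. Both were at 0 in Control library 1 and had 2.54 and 1.27 in Control library 3, so Control and the drug groups overlapped. In contrast Il1r2 and Trem1, genes of mature neutrophils, reached 24.2 and 11.5 in Dox library 2 against at most 3.81 and 2.54 in Control. Both were at 0 in Dox library 1 and at 6.16 in Dox library 3, so Dox and Control overlapped here too. These 5 genes were chosen after their values were seen and were not tested.

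Without libraries 3, DESeq2 called 2 of the 21 genes lower with Dox (Itgam and Lrg1, background 0.835%), and limma none. When the number of the replicate entered the model as a block, the limma count with Dox was 10. Leaving out 1 library at a time, it was 3 without Control 1, 1 without Control 2, 0 without Control 3, 12 without Dox 2, 1 without Dox 3, 3 without Tc 3 and 5 or 6 otherwise.

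**Figure D5:**
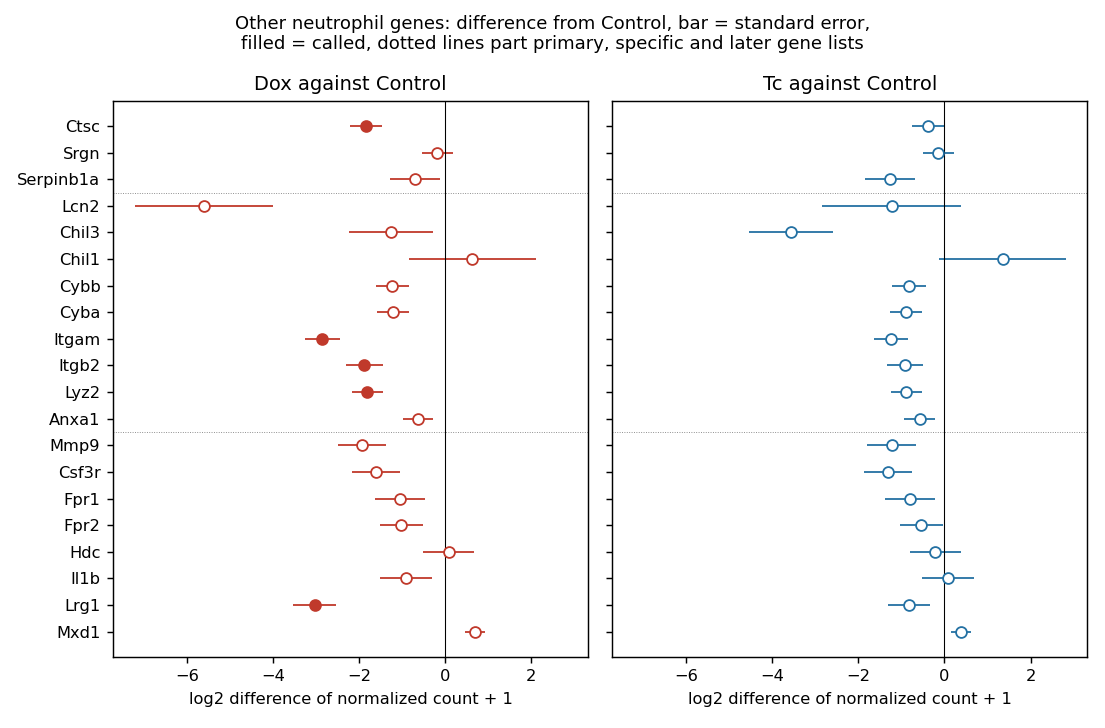
Log2 difference of normalized count + 1 from Control (x axis) for 20 of the 21 tested genes of the 3 other neutrophil lists with Dox (left) and Tc (right), with bars for the standard error and filled points for called genes. With Dox 5 of the 20 are filled, all to the left of 0, and with Tc none.

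Regulators of granulocyte formation were listed separately. Of the 11 tested, which include Csf3r, 1 was called by limma, lower with Dox, against 3.86% of all genes. Csf1, a growth factor of the monocyte and macrophage lineage, had 581, 483 and 501 normalized counts in Control, 106, 89.7 and 103 in Dox, and 179, 318 and 247 in Tc. It fell by 2.38 on the log2 scale with Dox (SE 0.21, adjusted p = 0.00369 by limma; 2.52e-05 by DESeq2 without libraries 3), and the difference with Tc was -1.10 (adjusted p = 0.0958 by limma; 0.00078 by DESeq2). The groups did not overlap in any pair.

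The transcription factor genes were not called by limma. Spi1, which encodes PU.1, had 84.7, 161 and 115.7 normalized counts in Control, 32.6, 103.5 and 43.1 in Dox, and 35.1, 81.8 and 54.7 in Tc (adjusted p = 0.152 with Dox by limma). The log2 differences with Dox were -1.22 for Runx1, -0.17 for Cebpa, 0.19 for Cebpb and 0.35 for Cebpd, the C/EBP genes being expressed by hepatocytes as well. The chemokine Cxcl1 differed by -3.17 with Dox and -4.85 with Tc (adjusted p = 0.105 and 0.166 by limma), Cxcl12 by -0.40 and 0.37, its receptor Cxcr4 by -1.29 and -2.08, and the cytokine receptor chain Csf2rb by -0.76 and -0.81. DESeq2 called 2 of the 11 regulators lower with Dox (background 6.07%) and 3 with Tc (1.02%). Those with Tc were Csf1, Cxcl1 (-4.90, adjusted p = 3.47e-06) and Cxcr4 (-2.12, adjusted p = 0.0235). Without libraries 3 DESeq2 called 1 with Dox, Csf1, and 0 with Tc.

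Cebpe encodes the C/EBP factor needed for specific granules and was below the filter. It had 26.5, 18.6 and 25.4 normalized counts in Control, 0, 0 and 0.88 in Dox, and 0, 0 and 0.84 in Tc. Unlike Ltf, Camp and Ngp, it was even among the controls, and all drug libraries were at or near 0. This gene was chosen after its values were seen and has no test.

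Some markers of other cells were lower with Dox too, but not all lists followed the granule genes across the libraries. Their part in these differences was not tested. Of 11 tested monocyte and macrophage markers, 3 were called lower with Dox by limma, against 3.86% of all genes. They were Clec4f and Adgre1, genes of liver macrophages, and Csf1r, the receptor for Csf1. The summed level of that list ranged from 7784 to 14394 normalized counts in Control, 2226 to 7619.6 in Dox and 3956 to 7592 in Tc, and it was highest in library 2 of each group. Of 10 tested erythroid markers, 4 were called lower with Dox by limma (Hbb-bt, Hba-a1, Hba-a2 and Slc4a1), against 3.86% of all genes. DESeq2 called 7 lower and 1 higher with Dox. The erythroid list summed to 1593 to 6212 in Control, 836 to 2622 in Dox and 1407 to 2270.4 in Tc, so the groups overlapped. Control library 2 was the highest. Within each drug group this list was highest in library 1, where the later granule sum was lowest. Without libraries 3, DESeq2 called 0.835% of all genes lower with Dox. Of the 3 macrophage genes it called Clec4f (adjusted p = 0.0187) but not Adgre1 (0.152) or Csf1r (0.273). Of the 4 erythroid genes it called Slc4a1 (adjusted p = 0.00518) and Hbb-bt (0.0473) but not Hba-a1 (0.198) or Hba-a2 (0.196).

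The progenitor marker Spn, the platelet gene Ppbp and the cell cycle genes Mki67 and Top2a were called lower with Dox too by limma. They were 1 of 5, 1 of 3 and 2 of 8 genes tested in their lists, against 3.86% of all genes. Without libraries 3 DESeq2 called Spn (adjusted p = 0.00998) and Ppbp (0.0304) but not Mki67 (0.356) or Top2a (0.177), with a background of 0.835%. The progenitor list summed to 229.7 to 283 normalized counts in Control, 93.7 to 172.5 in Dox and 156 to 221 in Tc, and the megakaryocyte list to 91.0 to 220.3, 27.4 to 71.3 and 43.0 to 79.1. The cell cycle list summed to 375 to 601 in Control, 279.5 to 353 in Dox and 416 to 737 in Tc, so its Tc libraries were not below the controls. The list sums for eosinophil, basophil and mast cell genes, none of which passed the filter, were 7.41 to 44.2 in Control, 0.88 to 6.9 in Dox and 0.977 to 7.19 in Tc. Lymphocyte genes had 0 of 2 tested called by limma, with sums of 121 to 206 in Control, 44.9 to 72.7 in Dox and 59.6 to 131 in Tc. DESeq2 called both of these lymphocyte genes lower with Dox (background 6.07%), and 0 without libraries 3. Of the 8 hepatocyte markers, which check the labelled tissue, 0 were called by limma in any comparison, while DESeq2 called 1 lower and 1 higher with Dox. Their list summed to 1397000 to 1932000 normalized counts in Control, 709300 to 1145000 in Dox and 1201000 to 1691000 in Tc, so the Dox libraries lay below the controls here too. Of 9 protease inhibitors, which include the inhibitors of elastase and cathepsin G, 0 were called in any comparison of the main limma fit. DESeq2 called 2 of the 9 lower with Dox (background 6.07%) and 2 lower in Dox than in Tc (2.6%), and 0 without libraries 3.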

How the data were processed

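Total liver RNA of 9 mouse libraries was sequenced from single ends. Per the labels and the submitters' processing notes, the authors trimmed reads with cutadapt, aligned them with STAR to mm10, counted them per gene with HTSeq 2.0.5 and normalized with DESeq2 1.42.0. The deposited signal is therefore a read count scaled by its library's size factor, and whole reads were recovered for 100% of values (tolerance 0.01). All columns were used. Log2(normalized count + 1) was tested in R 4.3.3 by limma-trend (limma 3.58.1), fitting the 9 libraries in 1 model. The 12100 genes averaging at least 10 were tested, with Benjamini-Hochberg adjustment, and calls needed an adjusted p under 0.05 and a fold change over 2. DESeq2 1.42.0 and edgeR 4.0.16 on recovered reads were alternatives. The fits were tested on simulated counts. Dox and Tc libraries of the same number showed correlated deviations from their group means (r = 0.287, 0.321 and 0.182; control pairs -0.081 to 0.055), the pairing coming from the numbers in the labels, so a fit with that number as a replicate block was also run. Intervals cover counting error only. The members and gene lists were chosen with earlier results of these data known. Genes named were the 10 members, list genes that were called or, for neutrophil genes and regulators, had a mean of at least 10, and the 8 genes most alike to each sum. Gene models were GENCODE M21 on GRCm38. A gene of the neutrophil lists and a most alike gene are counted but not reported here.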

Additional observations from a re-analysis of the deposited data

How the results depend on the processing

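The primary and later sums stayed lower with each drug than in Control under every alternative run. The primary difference of -7.46 with Dox became -6.09 with a pseudocount of 8, -7.31 with the same total per library, -4.58 as the mean over members of the log2 level and -4.99 without Prtn3 (added after the data were seen). Between Dox and Tc the last 2 settings moved -4.88 to -2.44 and -2.62. Without Prtn3 the primary share of granule counts was 26.8% in Control and 25.2% in Tc. Leaving out 1 library at a time, the primary differences ranged from -7.56 to -7.38 with Dox, -3.71 to -0.96 with Tc and -6.5 to -3.74 between the drugs, and the later ones from -3.3 to -1.07, from -3.09 to -1.3 and from -1.14 to 1.09, the last with either sign.

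Counts over all genes moved widely. The 605 genes called with Dox became 369 at a mean of at least 50, 333 with only the 2 groups compared, 1134 by DESeq2, 144 by DESeq2 without libraries 3 and 0 by limma without libraries 3. The 20 called with Tc became 32 without a filter, 9 at a mean of at least 50, 276 with only the 2 groups compared, 191 by DESeq2, 9 by DESeq2 without libraries 3 and 0 by limma without libraries 3. The 26 between Dox and Tc became 4 without a filter, 3 with the same total per library and 609 by DESeq2, and 0 with a pseudocount of 8, at a mean of at least 50, by edgeR, with only the 2 groups compared and by limma without libraries 3, where 454 to 2861 genes had an unadjusted p under 0.05. With the replicate block, which rests on the pairing of Dox and Tc numbers, 2 genes were called with Tc and 2 between the drugs, and 10 other neutrophil genes with Dox in place of 6. DESeq2 called 11 of these other neutrophil genes with Dox, 1 with Tc and 5 between the drugs, limma without libraries 3 called 0 and DESeq2 without them 2 with Dox, and with Tc limma called 1 without a filter and 2 with only the 2 groups compared. Leaving out 1 library at a time, counts ranged from 33 to 1500 with Dox, 1 to 221 with Tc and 0 to 1362 between the drugs, and for other neutrophil genes from 0 to 12, 0 to 1 and 0 to 4. The cause of these moves was not tested. Elane, Ctsg, Camp and Retnlg rest on at most 52 reads over a group, so the size of their differences is poorly set at this depth.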
